A study of Mus musculus with 23 samples.

Results

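The genes described here are the mouse receptors for interleukins, colony-stimulating factors and TNF-type ligands, chosen by name. A probe is a member if its symbol on the array starts with Il and a number followed by r, with Csf and a number followed by r, or with Tnfrsf, with 1 gene of the Csf series left out. Of 25697 probes in the table of quantile-normalized values, 122 met this rule, and they read 68 gene symbols. The Il series supplied 76 probes for 43 symbols, the Csf series 10 probes for 4 symbols and the Tnfrsf series 36 probes for 21 symbols. The rule reads names and no measured value. By transcript accession 8 of the probes now carry another symbol: Il1rl1l is Tmed1, a protein of vesicle transport, Il28ra is Ifnlr1, Il8ra and Il8rb are the chemokine receptors Cxcr1 and Cxcr2, and Tnfrsf19l is Relt. Il1rn, which the name rule also takes in, encodes a secreted antagonist of the IL-1 receptor and no receptor.

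RNA was read on 23 Illumina MouseRef-8 v2 bead arrays. ESC-derived LKS (Lin-ckit+Sca-1+) cells came from R1 ESCs (129X1/SvJ x 129S1) at day 7 of differentiation, from Static flasks (3 arrays), from a stirred Spinner flask (3 arrays) and from rotating Synthecon vessels (8 arrays), and were selected by c-kit and Sca-1 alone, with no depletion of lineage-positive cells. Native LKS cells were taken from 129X1/SVJ x 129S1/SvImj matings, bred to share the MHC background of R1. They came from bone marrow (BM) of mice aged 10 weeks (3 arrays) and from fetal liver (FL) of embryos at day 15 (3 arrays), and were depleted of cells with lineage markers before the same sort. The 3 arrays of undifferentiated ESCs (day 0) read R1 cells that had been expanded on fibroblast feeders. No gene was edited in any group, and all ESC-derived and undifferentiated samples derive from this 1 line. Below, dynamic culture stands for Spinner and Synthecon averaged with equal weight, and native for BM and FL averaged likewise.

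Many class I cytokine receptors pair a ligand-specific chain with a shared chain and signal through JAK kinases and STAT factors. The common beta chain serves IL-3, IL-5 and GM-CSF, the common gamma chain serves IL-2, IL-4, IL-7, IL-9, IL-15 and IL-21, and gp130 (Il6st) serves IL-6 and IL-11. Receptors of the IL-1 and IL-17 families signal through adaptors such as MyD88 and TRAF6 towards NF-kappaB, and TNF receptors recruit TRAF proteins or, where they carry a death domain, FADD and caspase-8. In marrow and fetal liver these receptors carry the signals by which progenitors survive, divide and commit to granulocyte, macrophage or lymphoid fates.

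Per array, 9785 to 11204 probes had a detection p-value under 0.01 against negative control beads, which is called above background here. The quantile-normalized values share the same distribution on every array, with a median of 6.40 and a range of 4.90 to 15.09 on the log2 scale. The 8 Synthecon arrays fall into 2 sets (replicates 1, 3, 5 and 7, and replicates 2, 4, 6 and 8). Pairs within a set on the same slide differed by a median of 0.0681 to 0.0784 log2 units over the 4643 probes with a mean above 9, against 0.0947 to 0.457 for pairs of arrays within the other groups. Pairs between sets on 1 slide differed by 0.172 to 0.185. Replicates 1 and 2 were on another slide than the rest. Across slides, pairs within a set differed by 0.212 to 0.233 and pairs between sets by 0.273 to 0.293. The sets were counted as 2 samples, and the fit held 17 samples. Static replicate 1 stood apart from Static replicates 2 and 3: its summed signal of 8 pluripotency markers (Pou5f1, Nanog, Sox2 and others) was 61300, against 9580 and 3700 in the other Static arrays. The same sum ran from 59700 to 67400 in Spinner, from 64400 to 78900 in Synthecon, from 551 to 556 in BM, from 566 to 646 in FL and from 49300 to 58400 in undifferentiated ESCs. Named Static differences from native that lost their call without this array are given both ways. The labels call all arrays biological replicates but name no culture or animal, and the p-values cover no more than the spread among arrays.

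Of the markers used in the sort, only Sca-1 could be read as a transcript. Ly6a, which encodes Sca-1, was above background on all 23 arrays, and no probe for Kit was found. Of 8 measured progenitor markers, 6 (Cd34, Flt3, Cd48, Slamf1, Ptprc and Runx1) were below background on every Spinner and every Synthecon array. The sort did not select for any of these 6. The sum of the 8 was 1900 to 3750 in Static, 1110 to 1320 in Spinner and 1990 to 3670 in Synthecon. It was 2860 to 3540 in BM, 2750 to 3240 in FL and 1220 to 4330 in undifferentiated ESCs. In Static cells Flt3, Cd48 and Ptprc, the pan-leukocyte phosphatase CD45, were below background on all 3 arrays, and in BM and in FL only Flt3 and Cd48 were. Native cells had more signal of markers of several blood lineages than most cultured samples, although they were depleted of lineage-positive cells. Whether this signal came from mature cells or from progenitors was not tested. The paper reports that reanalysed sorted cells were pure for c-kit and Sca-1. The summed signal of 9 neutrophil markers (S100a8, S100a9, Ngp, Ltf and others) was 649, 6210 and 7810 in Static, 564 to 602 in Spinner and 570 to 742 in Synthecon, against 108000 to 214000 in BM and 98700 to 130000 in FL. All 9 were below background on every Spinner array. Of 9 monocyte and macrophage markers, the sum was 9350 to 34500 in BM and 8260 to 23900 in FL, and at most 1740 in any cultured sample. Of these, Ccr2 was below background in BM and FL, Fcgr1 in BM and Itgam in FL. Mast cell and basophil markers (8 measured, Tpsb2 below background in BM) summed to 17100 to 23500 in BM and 3820 to 16800 in FL. Their sum was at most 1590 in any cultured sample. B-cell markers (6 measured, with Ms4a1 and Pax5 below background on all arrays) summed to 1110 to 3820 in BM, to 1370, 2750 and 19200 in FL, and to at most 793 in the ESC-derived cells. NK markers (5 measured, of which Klrb1c, Ncr1 and Klre1 were below background on all arrays) summed to 3490 to 5980 in BM, to 826 to 1200 in FL and to at most 325 in the ESC-derived cells. T-cell markers (6 measured, Cd4 and Cd8a below background on all arrays) went otherwise: 1410 to 1660 in Synthecon, against 886 to 1300 in BM and 938 to 1110 in FL. Cd3d and Cd3g were also below background on every Synthecon array. Only 1 of the 6 was above background on every array of at least 1 group. Erythroid markers (8 measured) summed to 47900 to 100000 in BM and 41600 to 130000 in FL. In Static they summed to 4200, 46200 and 25300, with replicate 2 in the native range, and in dynamic culture to 1800 to 4000. Fibroblast markers (8 measured, Lum and Postn below background in undifferentiated ESCs) summed to 1560, 12000 and 2780 in Static replicates 1, 2 and 3, and to 1370, 3540 and 1160 in undifferentiated replicates 1, 2 and 3, against 522 to 697 in native cells. In bulk RNA, fewer cells of a type and less RNA per cell cannot be told apart, and the part of these other cell types in the receptor differences was not tested.

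**Figure D1:**
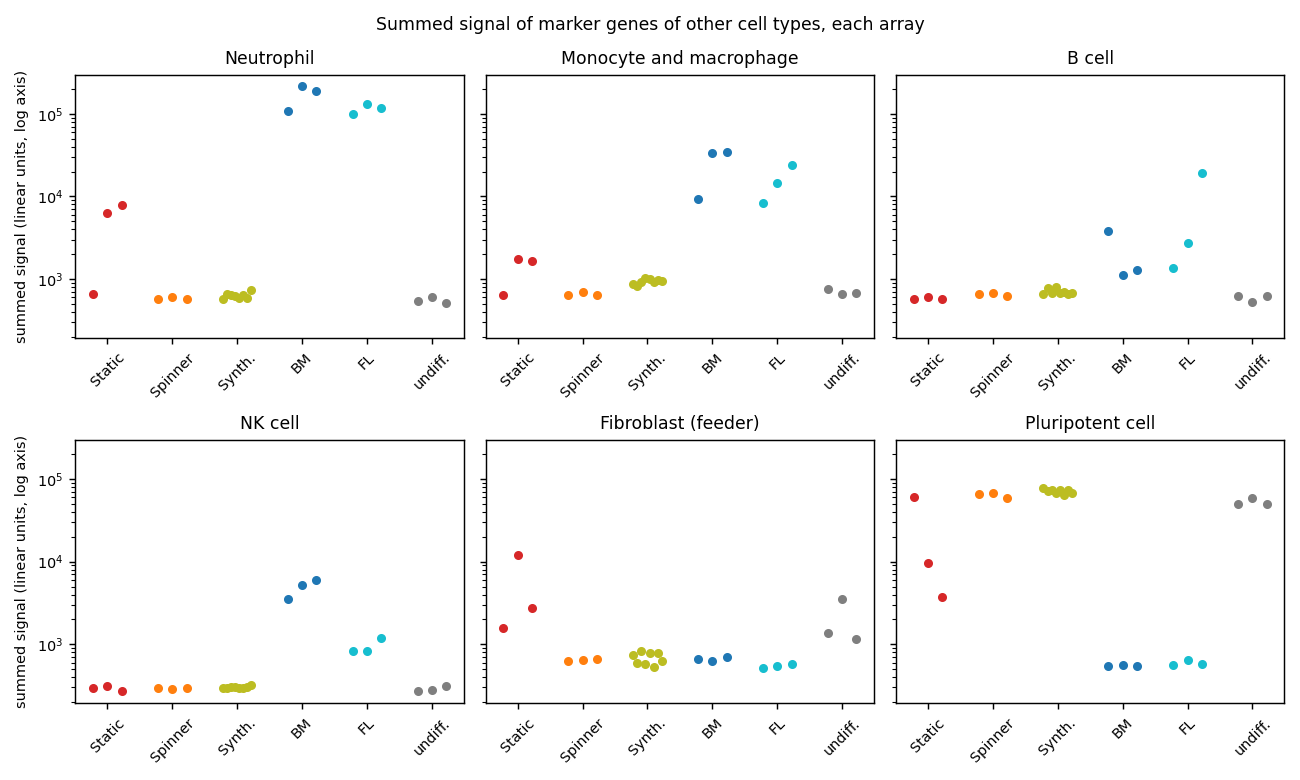
Summed linear signal (log axis) of 6 sets of marker genes on each array, by group. Neutrophil, monocyte, B-cell and NK markers are highest in BM and FL, pluripotency markers are high in Spinner, Synthecon, undifferentiated ESCs and Static replicate 1, and fibroblast markers are highest on Static replicate 2 (12000). Other sets are not drawn, among them T-cell markers, whose sum is highest in Synthecon although Cd3d, Cd3g, Cd4 and Cd8a are below background there.

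Of the 122 receptor probes, 57 (46.7%) were below background on all 23 arrays, against 41.7% of all probes. These 57 include every probe of 24 genes: Csf2rb, Il12rb1, Il12rb2, Il13ra2, Il1r1, Il1rapl2, Il1rl2, Il20ra, Il21r, Il22ra1, Il22ra2, Il23r, Il2ra, Il2rb, Il4ra, Il5ra, Il9r, Tnfrsf17, Tnfrsf19l, Tnfrsf1b, Tnfrsf23, Tnfrsf4, Tnfrsf8 and Tnfrsf9. A further 11 genes (Il13ra1, Il18rap, Il1r2, Il1rap, Il1rn, Il20rb, Il6ra, Il8ra, Il8rb, Tnfrsf11a and Tnfrsf11b) passed background on some arrays without doing so on all arrays of any group. The remaining 33 genes had 43 probes above background on every array of at least 1 group. That criterion favours probes that are high in some group, so counts over those 43 only describe them. Among all 122, 63 probes (51.6%) differed among the 6 groups in limma's moderated F test (adjusted p under 0.05), against 43.5% of all probes tested.

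**Figure D2:**
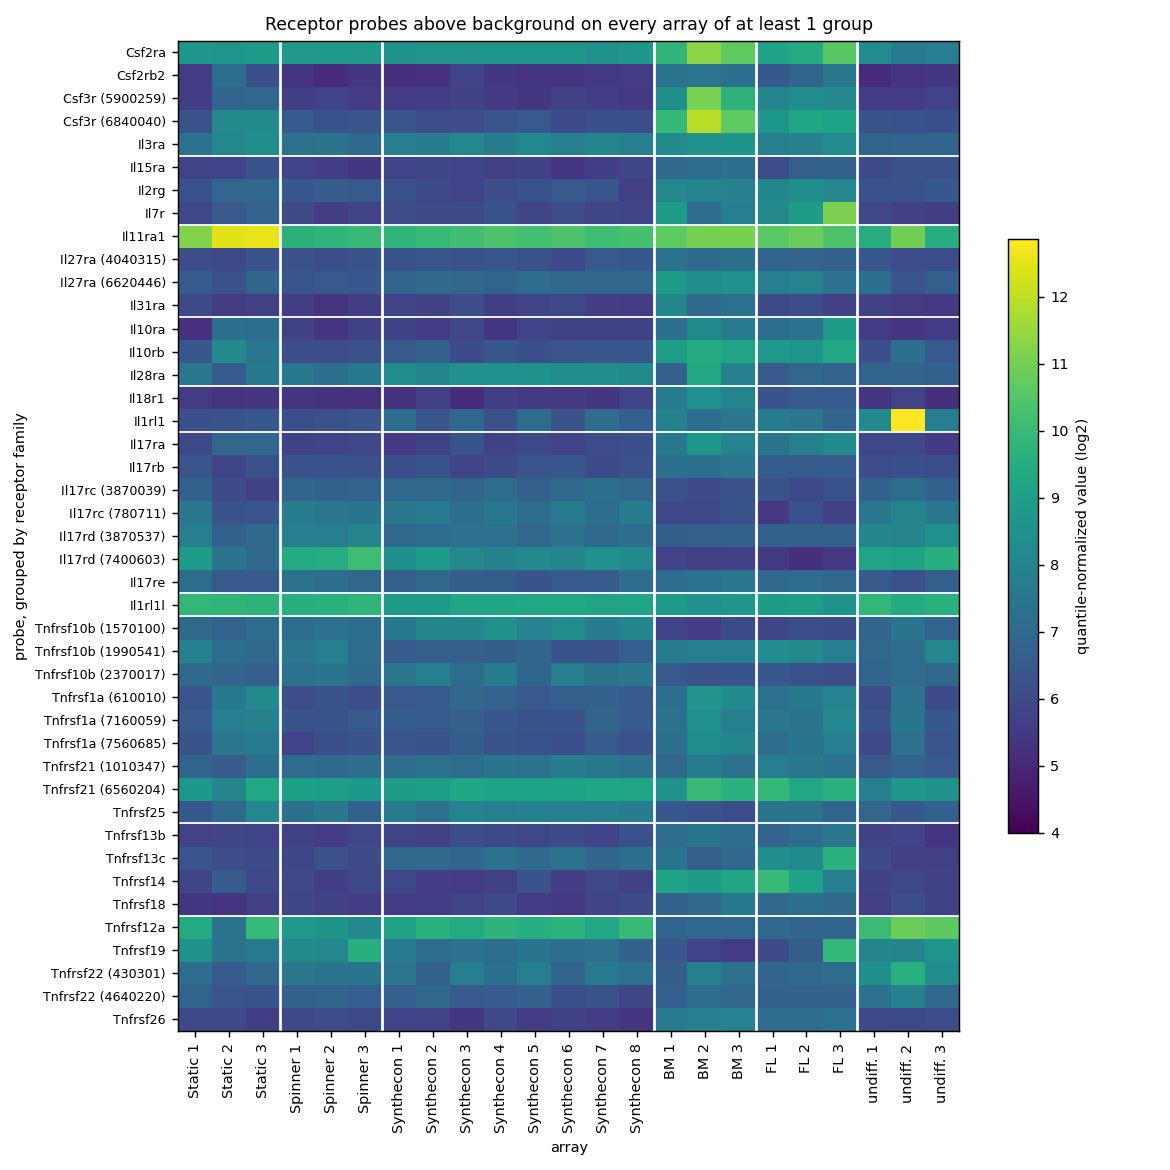
Normalized log2 value of the 43 receptor probes that were above background on every array of at least 1 group, one row per probe and one column per array, with white lines between groups and between receptor families. Csf3r, Il7r, Il10rb, Tnfrsf14 and Il18r1 are bright in BM or FL and dark in Spinner and Synthecon, Il17rd and Tnfrsf12a run the other way, and Il1rl1 is brightest on undifferentiated replicate 2 (12.87).

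ESC-derived cells were set against native cells to find which cytokine receptors the culture-derived population shares with LKS cells made in the animal. In Static cells 43 receptor probes (35.2%) were called, against 26.7% of all probes tested: 7 were higher than in native cells (5.74%, against 12.9% of all probes) and 36 were lower (29.5%, against 13.8%). In dynamic culture 56 (45.9%, against 37% of all probes) were called, with 11 higher (9.02%, against 18.9%) and 45 lower (36.9%, against 18.2%). Some called probes were not above background on every array of any group. These were 14 of the 36 lower in Static, and 19 of the 45 lower and 2 of the 11 higher in dynamic culture. The shares of all probes include such dim probes too. The median difference over the 122 probes was -0.185 in Static and -0.195 in dynamic culture on the log2 scale, and over all probes it was -0.034 and -0.014. The 2 comparisons share the native arrays. In both, 32 probes were lower and 6 higher, 12 were lower in dynamic culture alone and 4 in Static alone, 5 were higher in dynamic culture alone, and Il11ra1 was called in opposite directions.

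**Figure D3:**
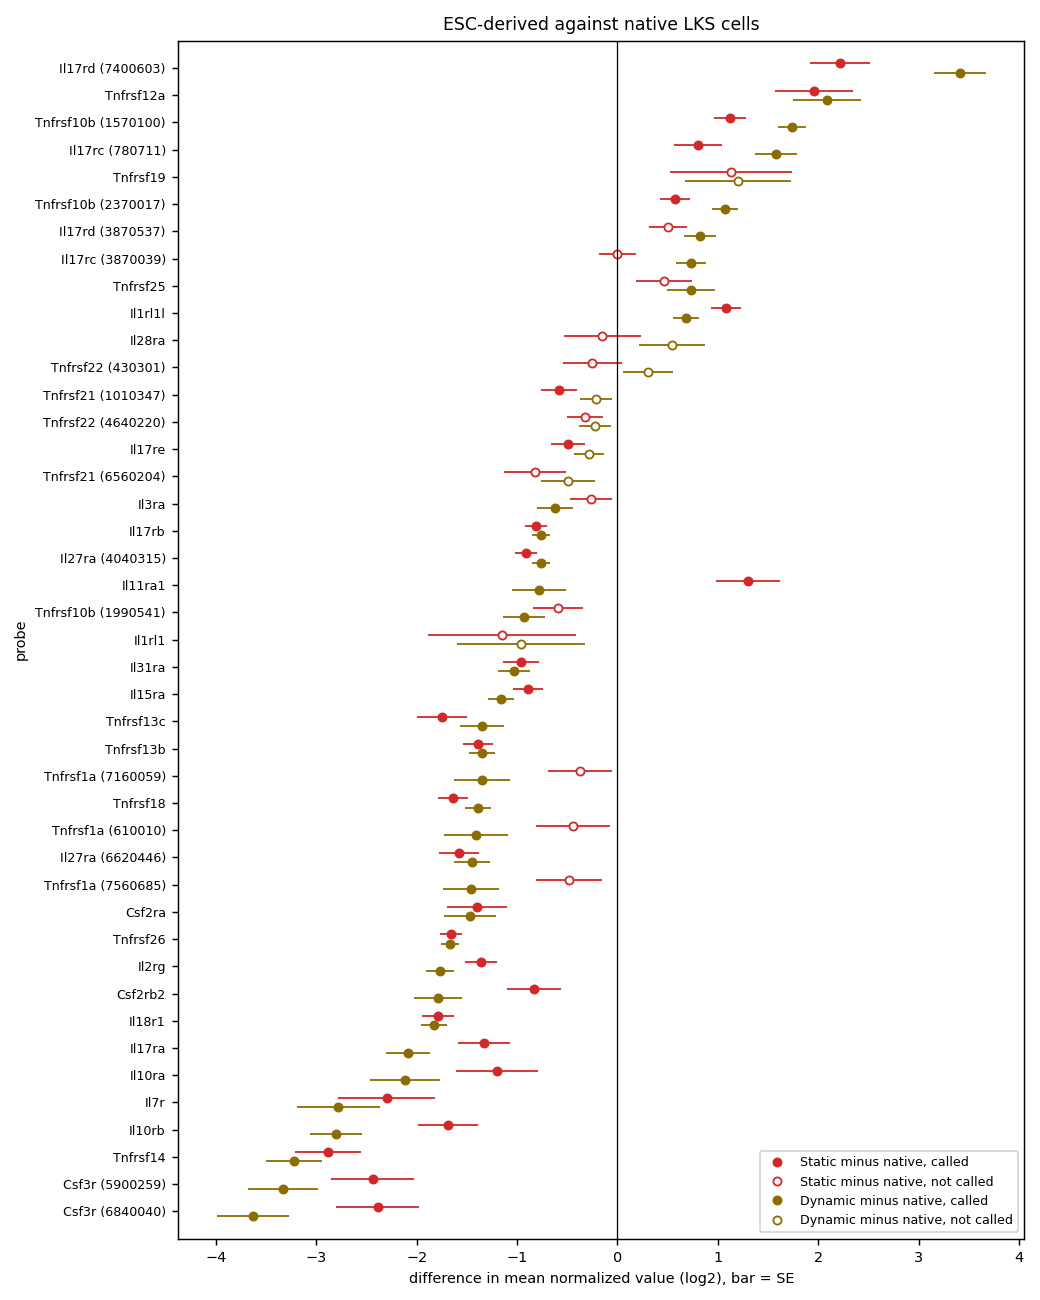
Difference in mean normalized value (log2, bars are SE) of Static minus native (red) and dynamic minus native (brown) for the 43 receptor probes, with filled points for probes called at an adjusted p under 0.05. Csf3r, Tnfrsf14, Il10rb and Il7r lie farthest to the left and Il17rd and Tnfrsf12a farthest to the right. Differences of probes that are below background on one side are compressed by the background level.

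Among the RefSeq promoter windows (GRCm38.p6, 250 bases before to 50 after each start), 68 windows were found for 56 of the 68 symbols, and 10 genes had more than 1. They held a median of 7.5 CpG dinucleotides, against 7.0 in all 32851 windows scanned, and 23.5% of them, against 35.8% of all windows, had an observed over expected CpG ratio above 0.6. The 7 windows of 5 genes called higher than native held a median of 15 CpG, and the 20 windows of 17 genes called lower held 7.5. Windows of 4 members are shown because these members had the largest differences on each side: Csf3r (chr4:126024409-126024708, plus strand, 9 CpG) and Tnfrsf14 (chr4:154928028-154928327, minus strand, 2 CpG) were lower in ESC-derived cells, and Il17rd (chr14:27038751-27039050, plus strand, 19 CpG) and Tnfrsf12a (chr17:23677400-23677699, minus strand, 20 CpG) were higher. They are written 5′ to 3′, with CpG dinucleotides in capitals.
Csf3r: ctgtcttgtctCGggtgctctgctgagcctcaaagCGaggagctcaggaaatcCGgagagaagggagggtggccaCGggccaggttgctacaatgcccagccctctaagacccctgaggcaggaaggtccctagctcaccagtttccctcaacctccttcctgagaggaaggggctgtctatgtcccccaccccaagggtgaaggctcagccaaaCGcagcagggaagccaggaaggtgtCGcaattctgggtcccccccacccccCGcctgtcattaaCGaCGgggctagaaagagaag
Tnfrsf14: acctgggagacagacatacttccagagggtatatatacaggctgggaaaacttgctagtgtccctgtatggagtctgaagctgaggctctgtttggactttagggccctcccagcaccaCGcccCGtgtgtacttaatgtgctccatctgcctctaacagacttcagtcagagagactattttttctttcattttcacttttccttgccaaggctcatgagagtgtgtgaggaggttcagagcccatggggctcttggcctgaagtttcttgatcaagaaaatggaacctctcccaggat
Il17rd: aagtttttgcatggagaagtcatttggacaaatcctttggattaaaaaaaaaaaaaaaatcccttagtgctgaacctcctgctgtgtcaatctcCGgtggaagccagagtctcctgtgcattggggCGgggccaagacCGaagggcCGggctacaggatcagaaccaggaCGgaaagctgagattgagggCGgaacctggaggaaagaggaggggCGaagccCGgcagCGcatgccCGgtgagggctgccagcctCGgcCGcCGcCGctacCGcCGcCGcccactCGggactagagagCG
Tnfrsf12a: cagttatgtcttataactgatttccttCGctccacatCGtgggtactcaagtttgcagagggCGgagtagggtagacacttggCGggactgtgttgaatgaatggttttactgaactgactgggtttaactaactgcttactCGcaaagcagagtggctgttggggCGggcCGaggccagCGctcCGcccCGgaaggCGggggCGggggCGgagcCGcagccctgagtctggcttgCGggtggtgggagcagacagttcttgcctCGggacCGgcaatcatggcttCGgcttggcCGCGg
Short motifs were searched on both strands. The PU.1-type Ets letters GAGGAAGT were in 2 member windows (2.94%, against 3.2% of all windows), the Runx letters TGTGGTT in 6 (8.82%, against 5.27%), the GATA letters AGATAAG in 4 (5.88%, against 3.04%) and the C/EBP letters TTGCNNAA in 9 (13.2%, against 10.8%). The Ets letters were in the windows of Il18rap and Csf2rb2 (chr15:78305672-78305971, minus strand), where the match on the opposite strand is in capitals.
Csf2rb2: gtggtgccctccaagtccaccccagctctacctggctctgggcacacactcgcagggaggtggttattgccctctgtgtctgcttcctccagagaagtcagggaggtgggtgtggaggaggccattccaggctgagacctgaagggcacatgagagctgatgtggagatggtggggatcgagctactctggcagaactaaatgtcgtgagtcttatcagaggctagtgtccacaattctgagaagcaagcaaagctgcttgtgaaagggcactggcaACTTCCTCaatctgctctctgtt
A match is a description of the letters and no measure of binding.

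Most probes for receptors of the colony-stimulating factors were lower in ESC-derived cells. Of 12 probes for Csf2ra, Csf2rb, Csf2rb2, Csf3r, Il3ra and Il5ra, 8 were lower than native in Static and 10 in dynamic culture, and none was higher, against 13.8% and 18.2% of all probes lower. Of the 8, the Csf2rb probe 6760484 was below background on all arrays and 3 of the 5 Csf3r probes were above it on 1 or 2 BM arrays alone. Csf3r encodes the G-CSF receptor, which drives granulocyte production. Its brightest probe (6840040) read 6.21, 8.18 and 8.25 in Static replicates 1, 2 and 3, 6.57, 6.24 and 6.37 in Spinner and 6.02 to 6.50 (median 6.16) in Synthecon, against 9.91, 11.93 and 10.68 in BM and 8.71, 9.24 and 9.14 in FL. Undifferentiated ESCs read 6.32, 6.25 and 6.18. Every native array was thus above every cultured array, and among cultured arrays only Static 2 and 3 were above background. The difference was -2.39 ± 0.41 (SE) in Static (limma adjusted p = 0.000396; -1.72 and adjusted p = 0.00159 without Static replicate 1). In dynamic culture all arrays were below background, so Csf3r was at least 9.08-fold lower than native (limma adjusted p = 6.91e-07). A second Csf3r probe (5900259) had a difference of -2.44 ± 0.41 in Static, and was at least 4.61-fold lower in dynamic culture, where no array was above background. BM replicate 2, with the highest Csf3r value, also had the highest neutrophil sum (214000), and the neutrophil sum separated the same arrays as Csf3r did. Their relation was not tested.

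Csf2ra, the GM-CSF-specific alpha chain, was on in all samples. It read 8.74, 8.68 and 8.90 in Static, 8.76, 8.81 and 8.75 in Spinner and 8.55 to 8.71 (median 8.65) in Synthecon, against 9.85, 11.32 and 10.69 in BM and 9.15, 9.46 and 10.56 in FL. The ESC-derived values lay within a narrow band below all native values, with differences of -1.40 ± 0.30 in Static (limma adjusted p = 0.00245) and -1.47 ± 0.26 in dynamic culture (adjusted p = 0.000292). Undifferentiated ESCs were lower still at 8.28, 7.62 and 7.81, but the ESC-derived groups did not differ from them at the threshold (0.87 ± 0.35, adjusted p = 0.117 in Static, and 0.80 ± 0.32, adjusted p = 0.13 in dynamic culture). Csf2rb2, the mouse beta chain particular to IL-3, averaged 6.32 in Static, 5.30 in Spinner and 5.43 in Synthecon, against 7.36 in BM and 6.95 in FL. Of these, it was above background on Static replicate 2 (7.22), on all BM arrays and on FL replicate 3. All dynamic arrays were below background, which makes Csf2rb2 at least 1.32-fold lower there (adjusted p = 1.45e-05). The Static difference (-0.83 ± 0.27, adjusted p = 0.0328) was no longer called without Static replicate 1 (-0.46, adjusted p = 0.225), Static replicate 3, BM replicate 2 or FL replicate 3. The 3 probes of the partner gene Csf2rb, the common beta chain, were below background everywhere, native cells included, although 2 of them were called lower in dynamic culture on group means of 5.70 to 5.79, against 6.09 to 6.40.

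Il3ra, the IL-3-specific alpha chain, was above background on all arrays and differed less. It read 7.32, 8.09 and 8.42 in Static, 7.36, 7.42 and 7.03 in Spinner and 7.66 to 8.15 (median 7.80) in Synthecon, against 8.16, 8.50 and 8.59 in BM and 7.78, 7.88 and 8.28 in FL. The groups overlapped. Dynamic culture was lower by 0.62 on the log2 scale (difference -0.62 ± 0.18, limma adjusted p = 0.0118; not called without Synthecon set 2), and Static was not called (-0.26 ± 0.21, adjusted p = 0.413). Undifferentiated ESCs had the lowest values, 6.82, 6.90 and 6.91, and every ESC-derived array lay above them. Static exceeded them by 1.07 ± 0.24 (adjusted p = 0.00866). Dynamic culture exceeded them by 0.70 ± 0.22 (adjusted p = 0.0497), a call that was lost when any of 7 samples was left out.

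**Figure D4:**
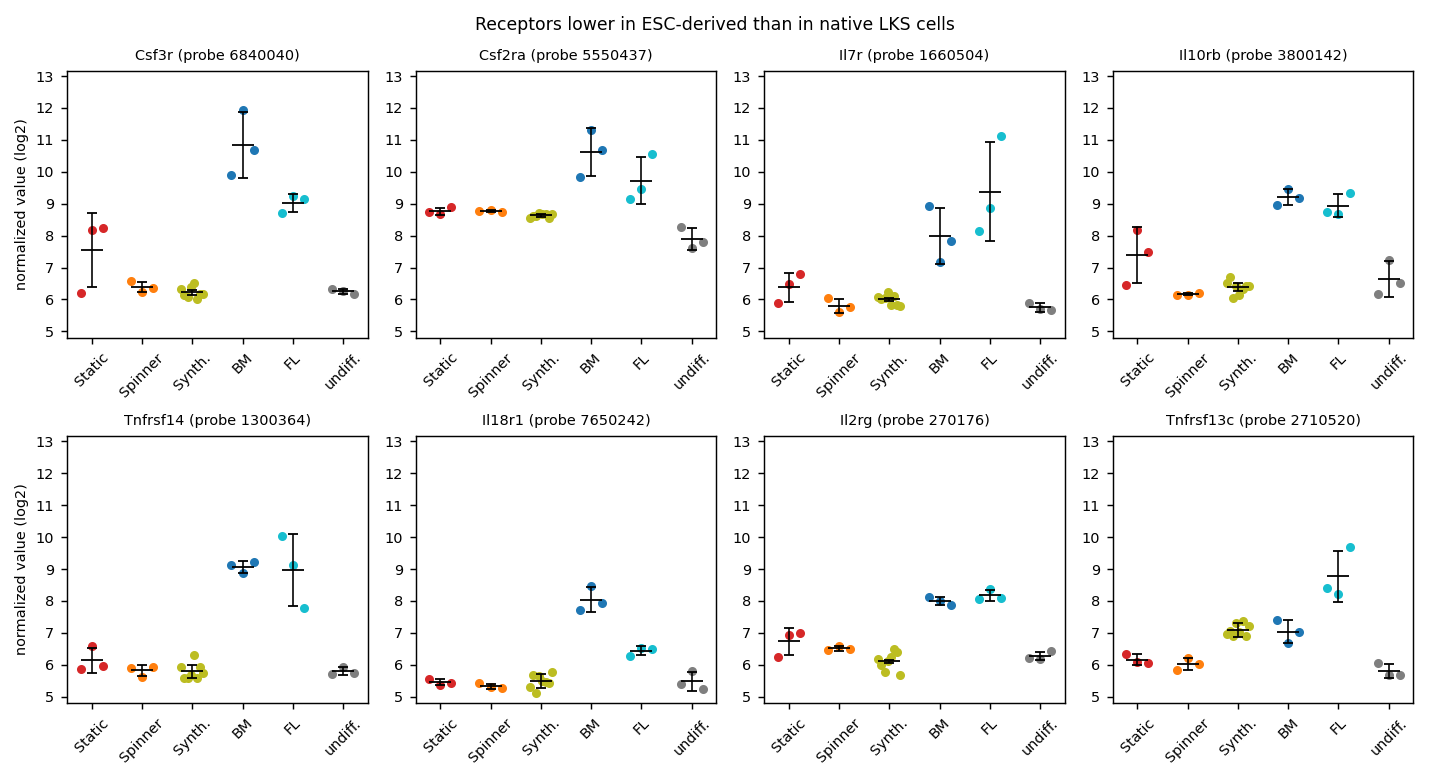
Normalized log2 value on each array (points) with group mean and SD (black; Synthecon over 2 sets, other groups over 3 arrays) for 8 receptors lower in ESC-derived than in native cells. For Csf3r and Il10rb, Static replicates 2 and 3 lie between native cells and the other cultured arrays, and FL replicate 3 has the highest Il7r (11.11) and Tnfrsf13c (9.69).

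Of the lymphoid interleukin receptors, Il7r and Il2rg marked native cells. Il7r encodes the IL-7 receptor alpha chain of lymphoid progenitors. Its probe 1660504 read 5.88, 6.48 and 6.79 in Static, 6.04, 5.60 and 5.77 in Spinner and 5.78 to 6.24 (median 6.03) in Synthecon, against 8.92, 7.18 and 7.83 in BM and 8.16, 8.87 and 11.11 in FL. Native arrays spread widely but none overlapped with the cultured arrays, of which only 1 Static array passed background. Static was lower with a difference of -2.30 ± 0.48 (limma adjusted p = 0.00177), and dynamic culture was at least 3.8-fold lower (adjusted p = 5.04e-05). Of the other Il7r probes, 1780079 was never above background and 610022 only on FL replicate 3 (7.74). The array with the highest Il7r, FL replicate 3, also had the highest B-cell sum, 19200.

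Il2rg, the common gamma chain, read 6.23, 6.93 and 7.01 in Static, 6.45, 6.58 and 6.50 in Spinner and 5.69 to 6.49 (median 6.15) in Synthecon, against 8.12, 7.99 and 7.87 in BM and 8.06, 8.37 and 8.09 in FL. No cultured array reached the native range. The difference from native was -1.36 ± 0.16 in Static (adjusted p = 7.16e-06), and dynamic culture was at least 2.52-fold lower (adjusted p = 4.8e-08). Il15ra, the IL-15 alpha chain, was above background only on the 3 BM arrays (7.06, 7.10 and 7.26). The remaining members of this group were dim. Il13ra1 passed background on 8 arrays with group means of 5.94 to 7.41 and was not called in either comparison with native, and Il2ra, Il2rb, Il4ra, Il9r, Il13ra2 and Il21r were never above background.

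The IL-10 receptor chains separated native from dynamic cells. Il10rb is shared by receptors for IL-10, IL-22 and the lambda interferons. It read 6.45, 8.19 and 7.49 in Static, 6.14, 6.14 and 6.19 in Spinner and 6.06 to 6.71 (median 6.41) in Synthecon, against 8.97, 9.47 and 9.19 in BM and 8.75, 8.69 and 9.34 in FL. Static replicates 2 and 3 were above background and Static replicate 1 was not. The difference was -1.69 ± 0.30 in Static (limma adjusted p = 0.000555; -1.23 and adjusted p = 0.00294 without Static replicate 1), and dynamic culture was at least 4.98-fold lower (adjusted p = 4.24e-07). Il10ra, the IL-10-specific chain, read 5.25, 7.25 and 7.20 in Static, 5.35 to 5.73 in Spinner and 5.41 to 5.89 in Synthecon, against 7.25, 8.24 and 7.61 in BM and 7.21, 7.38 and 8.88 in FL. Static replicate 2 thus reached the native range, and Static replicate 3 lay just below the lowest native value. The Static difference of -1.20 ± 0.41 (adjusted p = 0.0388) became -0.54 without Static replicate 1 (adjusted p = 0.282) and was also lost without BM replicate 2, BM replicate 3 or FL replicate 3, while dynamic culture was at least 2.01-fold lower (adjusted p = 0.000145). Il28ra, the ligand-specific chain of the lambda interferon receptor, ran otherwise. Its probe 4390543 averaged 7.23 in Static, 7.48 in Spinner and 8.37 in Synthecon, against 8.00 in BM and 6.77 in FL, and was called in neither comparison with native. BM replicate 2 had the highest value (9.37).

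In the IL-6, IL-11 and IL-12 receptor family, Il11ra1 stood alone in its direction. It encodes the IL-11-specific chain, which pairs with gp130. Its value was 11.20, 12.43 and 12.55 in Static, 9.69, 9.79 and 9.97 in Spinner and 9.81 to 10.39 (median 10.19) in Synthecon, against 10.68, 11.04 and 11.04 in BM and 10.59, 10.84 and 10.39 in FL. Undifferentiated ESCs read 9.52, 10.97 and 9.52. All 3 Static arrays were above every other array of the series, Static replicate 1 by the least. Static exceeded native by 1.30 ± 0.32 (limma adjusted p = 0.00573; 1.73 and adjusted p = 0.000471 without Static replicate 1), dynamic culture by 2.07 ± 0.33 (adjusted p = 0.000813) and undifferentiated ESCs by 2.05 ± 0.36 (adjusted p = 0.00193). Dynamic culture was below native by a difference of -0.78 ± 0.27 (adjusted p = 0.0351), which fell short of the threshold when any of 8 samples was left out. The partner chain gp130, Il6st, which is no member, averaged 8.52 in Static, 8.36 in Spinner and 7.65 in Synthecon, against 7.31 in BM and 6.99 in FL, and was higher than native in Static (1.37 ± 0.21, adjusted p = 0.000116) and in dynamic culture (0.85 ± 0.18, adjusted p = 0.00119).

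The other members of that family were lower in ESC-derived than in native cells or below background everywhere. Il27ra, the IL-27-specific chain (probe 6620446), averaged 6.55 in Static, 6.41 in Spinner and 6.96 in Synthecon, against 8.57 in BM and 7.68 in FL, with differences of -1.58 ± 0.20 in Static (limma adjusted p = 2.22e-05) and -1.45 ± 0.18 in dynamic culture (adjusted p = 6.22e-06). This probe was above background on all native and all Synthecon arrays, on Static replicate 3 and on undifferentiated replicate 1. Il31ra, a gp130-like receptor of IL-31, was above background only in BM, where it read 8.08, 6.98 and 7.32, and it averaged 5.93 in FL and 5.55 to 5.77 in the cultured groups. Il6ra, the IL-6-specific chain, passed background on 5 arrays, among them Static replicate 3. It averaged 6.42 in Static, 6.26 in Spinner and 6.04 in Synthecon, against 7.36 in BM and 6.96 in FL, and was called lower in both comparisons. Il12rb1, Il12rb2 and Il23r were below background everywhere.

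The IL-17 receptor family split. Il17ra, the shared signalling chain, followed the native pattern: 5.97, 6.94 and 6.96 in Static, 5.75, 5.78 and 5.90 in Spinner and 5.49 to 6.29 (median 5.89) in Synthecon, against 7.57, 8.70 and 7.92 in BM and 7.40, 7.85 and 8.26 in FL. Static replicates 2 and 3 were above background, and no cultured array reached the native range. The difference was -1.33 ± 0.26 in Static (limma adjusted p = 0.00099; -1.0 and adjusted p = 0.00798 without Static replicate 1), and dynamic culture was at least 2.29-fold lower (adjusted p = 1.48e-06). Il17rb, a receptor chain for IL-25, was above background on the 3 BM arrays alone. Il17re averaged 6.72 in Static, 7.14 in Spinner and 6.70 in Synthecon, against 7.36 in BM and 7.05 in FL, and its Static call (-0.49 ± 0.17, adjusted p = 0.0441) was lost when any of 6 arrays was left out.

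Il17rd and Il17rc went the other way. Il17rd, also known as Sef, is a membrane protein that dampens FGF signalling. Its probe 7400603 read 8.92, 7.42 and 7.02 in Static, 9.42, 9.51 and 10.13 in Spinner and 7.91 to 8.77 (median 8.22) in Synthecon, against 5.79, 5.68 and 5.76 in BM and 5.50, 5.21 and 5.46 in FL. All cultured arrays were above background and no native array was. By this probe Il17rd was therefore at least 1.8-fold higher in Static than in native cells (limma adjusted p = 3.85e-05) and at least 4.1-fold higher in dynamic culture (adjusted p = 4.91e-08). Undifferentiated ESCs had similar values to Spinner, 9.17, 9.13 and 9.57. Static was below them with a difference of -1.50 ± 0.35 (adjusted p = 0.0103; -2.07 and adjusted p = 1e-05 without Static replicate 1), and the difference of dynamic culture was -0.31 ± 0.31 (adjusted p = 0.621). Il17rd probe 3870537, also below background on all native arrays, was at least 1.49-fold higher than native in dynamic culture (adjusted p = 0.000738). It was not called in Static (0.50 ± 0.19, adjusted p = 0.0611). Il17rc, the second chain of the IL-17A receptor, read 7.55, 6.27 and 6.39 in Static on probe 780711, 7.72, 7.51 and 7.46 in Spinner and 7.13 to 7.73 (median 7.53) in Synthecon, against 5.96, 5.96 and 6.24 in BM and 5.46, 6.22 and 5.75 in FL. Static replicate 1 sat with the dynamic arrays, and Static replicates 2 and 3 were below background. Dynamic culture was at least 1.48-fold higher than native (adjusted p = 1.74e-05), while the Static difference of 0.80 ± 0.24 (adjusted p = 0.0221), with only Static replicate 1 above background, was 0.40 without Static replicate 1 (adjusted p = 0.162). Il17rc probes 3870039 and 1660170 were called higher in dynamic culture, with no bound above 1. In Static, with all arrays of both sides below background, neither was called (0.0, adjusted p = 0.995, and 0.11, adjusted p = 0.578).

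Among receptors of the IL-1 family, Il18r1 was a BM receptor. It encodes the ligand-binding chain for IL-18, found on NK and T cells and on some progenitors. It read 5.56, 5.36 and 5.42 in Static, 5.42, 5.29 and 5.27 in Spinner and 5.11 to 5.77 (median 5.47) in Synthecon, against 7.70, 8.48 and 7.95 in BM and 6.27, 6.53 and 6.50 in FL. Only the BM arrays were above background. Il18r1 was at least 1.36-fold lower in Static than in native cells (limma adjusted p = 3.25e-07) and at least 1.4-fold lower in dynamic culture (adjusted p = 3.17e-08). Il1rl1, also on chromosome 1, encodes the IL-33 receptor ST2, and the probe above background (3870291) reads transcript variant 2. This probe read 8.26, 12.87 and 7.81 in undifferentiated replicates 1, 2 and 3, so 1 of the 3 arrays set the group mean. It read 6.15 to 6.43 in Static, 6.12 to 6.35 in Spinner and 6.20 to 7.19 (median 6.81) in Synthecon, where the odd-numbered set averaged 7.11 and the even-numbered set 6.36. BM read 7.20 to 7.87 and FL 6.83 to 7.76. Il1r2, the IL-1 decoy receptor, was above background on 5 arrays, and Il1rap, the accessory chain of IL-1 receptors, on up to 7 arrays by any of its 6 probes, 3 of which never passed. Il1r1, Il1rl2 and Il1rapl2 were below background throughout.

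Of 13 probes for co-stimulating and survival receptors of lymphocytes in the TNF receptor series, 7 were lower than native in Static and 6 in dynamic culture, and none was higher, against 13.8% and 18.2% of all probes lower. Of the 13, 8 were never above background and 4 were above it on every array of at least 1 group, so both counts include dim probes. Tnfrsf14, also known as HVEM, binds LIGHT and BTLA on lymphoid and myeloid cells. It read 5.86, 6.59 and 5.97 in Static, 5.90, 5.63 and 5.92 in Spinner and 5.58 to 6.31 (median 5.71) in Synthecon, against 9.12, 8.86 and 9.22 in BM and 10.02, 9.13 and 7.78 in FL. No cultured or undifferentiated array was above background, and all native arrays were. Tnfrsf14 was at least 4.66-fold lower in Static (limma adjusted p = 5.79e-06) and at least 4.82-fold lower in dynamic culture (adjusted p = 2.01e-07). FL replicate 3, the array with the most B-cell signal, had the lowest native value. Tnfrsf18 (GITR), a co-stimulatory receptor of T cells, averaged 5.48 in Static, 5.73 in Spinner and 5.73 in Synthecon, against 7.13 in BM and 7.12 in FL, and was at least 1.25-fold lower in Static and at least 1.29-fold lower in dynamic culture.

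The BAFF-binding receptors Tnfrsf13b (TACI) and Tnfrsf13c (BAFF receptor) support B-cell survival. Tnfrsf13c read 6.35, 6.08 and 6.04 in Static, 5.84, 6.20 and 6.03 in Spinner and 6.89 to 7.37 (median 7.05) in Synthecon, against 7.41, 6.69 and 7.03 in BM and 8.41, 8.22 and 9.69 in FL. All 8 Synthecon arrays were above background and in the range of BM, and no Static or Spinner array was. Static was at least 2.15-fold lower than native (limma adjusted p = 8e-05), and the difference of dynamic culture was -1.35 ± 0.22 (adjusted p = 0.000127). Tnfrsf13b averaged 5.81 in Static, 5.74 in Spinner and 5.95 in Synthecon, against 7.23 in BM and 7.18 in FL, which makes it at least 1.32-fold lower in Static and at least 1.37-fold lower in dynamic culture. Tnfrsf17, the third receptor of this system, was never above background, nor were Tnfrsf4, Tnfrsf8 and Tnfrsf9, receptors of activated lymphocytes, or Tnfrsf1b, the other receptor of TNF.

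The death domain receptors differed among themselves. Tnfrsf1a, the main receptor of TNF, had 3 probes that ran together. Probe 7160059 read 6.54, 7.80 and 7.88 in Static, 6.31, 6.26 and 6.47 in Spinner and 6.25 to 6.87 (median 6.53) in Synthecon, against 7.33, 8.46 and 7.84 in BM and 7.51, 7.45 and 8.09 in FL. Static replicates 2 and 3 were within the native range, and Static replicate 1 with the dynamic arrays. Over the 3 probes the difference of dynamic culture ran from -1.46 to -1.35 (limma adjusted p of 0.000583, 0.00091 and 0.00231), and that of Static from -0.48 to -0.37 (none called; adjusted p of 0.316, 0.438 and 0.443).

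Tnfrsf10b, the mouse TRAIL death receptor, gave opposed readings. Probe 1570100 read 7.08, 6.84 and 7.17 in Static, 7.21, 7.31 and 7.21 in Spinner and 7.57 to 8.57 (median 8.04) in Synthecon, against 5.83, 5.57 and 6.00 in BM and 5.85, 6.13 and 6.05 in FL. It was below background on all native arrays, and dynamic culture was at least 1.63-fold higher (limma adjusted p = 5.94e-08) and Static at least 1.06-fold higher (adjusted p = 4.91e-05). Probe 2370017 was below background on all native arrays too and was at least 1.34-fold higher in dynamic culture (adjusted p = 5.17e-06). Probe 1990541 averaged 7.36 in Static, 7.47 in Spinner and 6.57 in Synthecon, against 7.80 in BM and 8.10 in FL, and was lower in dynamic culture by a difference of -0.93 ± 0.21 (adjusted p = 0.0024). No direction for the gene follows from probes that disagree, and Tnfrsf10b was the only member gene with probes called in opposite directions in any of the 6 comparisons. Tnfrsf21 (DR6) was bright in all groups (probe 6560204 averaged 8.68 in Static, 8.90 in Spinner and 9.11 in Synthecon, against 9.38 in BM and 9.62 in FL), and against native only its dimmer probe 1010347 was called, in Static (-0.58 ± 0.18, adjusted p = 0.025). That call was lost without Static replicate 1 (-0.56, adjusted p = 0.0639), Static replicate 2, BM replicate 2 or FL replicate 1. Tnfrsf25 (DR3) averaged 7.21 in Static, 7.18 in Spinner and 7.77 in Synthecon, against 6.26 in BM and 7.22 in FL, and its dynamic call (0.73 ± 0.24, adjusted p = 0.0239) was lost when any of 6 samples was left out.

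Tnfrsf12a led the TNF receptors that were higher in culture. It encodes Fn14, the receptor of TWEAK, which is known from fibroblasts, epithelium and endothelium. It read 9.42, 7.38 and 9.93 in Static, 8.79, 8.60 and 8.20 in Spinner and 9.06 to 9.97 (median 9.59) in Synthecon, against 6.86, 7.01 and 7.01 in BM and 7.08, 6.83 and 6.91 in FL. The lowest cultured array, Static replicate 2, still exceeded the highest native array. The difference was 1.96 ± 0.39 in Static (limma adjusted p = 0.00125) and 2.09 ± 0.34 in dynamic culture (adjusted p = 0.000108). Undifferentiated ESCs were higher again at 10.04, 10.88 and 10.62. Tnfrsf26 and Tnfrsf22, neighbours on chromosome 7, had different patterns. Tnfrsf26 was above background on all 6 native arrays and on no other, and was at least 1.64-fold lower in Static (adjusted p = 1.3e-08) and at least 1.69-fold lower in dynamic culture (adjusted p = 1.66e-09). Tnfrsf22, a decoy receptor for TRAIL in mice, was highest in undifferentiated ESCs and was not called against native. Tnfrsf19, known from progenitors of epithelium and nervous tissue, averaged 7.86 in Static, 8.60 in Spinner and 7.27 in Synthecon, against 5.93 in BM and 7.54 in FL. The FL mean rested on FL replicate 3 (9.91, against 6.07 and 6.63 in FL replicates 1 and 2), and neither comparison with native was called. Il1rl1l, now Tmed1, averaged 9.80 in Static, 9.67 in Spinner and 9.14 in Synthecon, against 8.67 in BM and 8.77 in FL, and was higher than native in Static (1.08 ± 0.15, adjusted p = 5.54e-05) and in dynamic culture (0.68 ± 0.13, adjusted p = 0.000587). Il8rb, a chemokine receptor of neutrophils, and Il8ra were above background on 1 BM array each. Tnfrsf11a (RANK) and Tnfrsf11b (osteoprotegerin) passed background on 2 and 1 arrays.

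**Figure D5:**
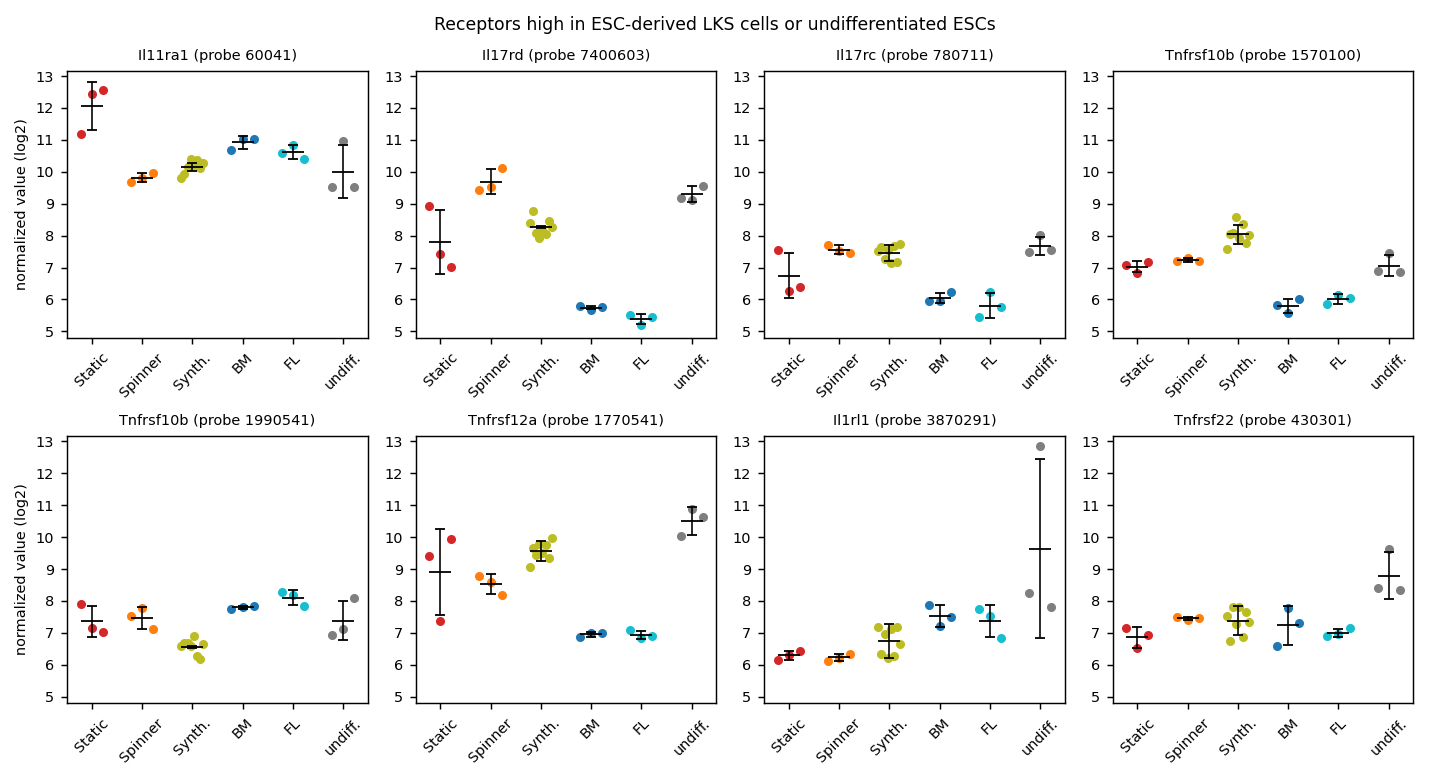
Normalized log2 value on each array (points) with group mean and SD (black; Synthecon over 2 sets, other groups over 3 arrays) for receptors high in ESC-derived cells or in undifferentiated ESCs. Il11ra1 is highest in Static, Il17rd and Tnfrsf12a are low in BM and FL, the Tnfrsf10b probes 1570100 and 1990541 run in opposite directions, and undifferentiated replicate 2 has the highest Il1rl1 (12.87) and Tnfrsf22 (9.63).

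Static was next set against dynamic culture, the comparison that addresses the effect of the culture system. Of the 122 probes 8 (6.56%) were called, against 14.2% of all probes tested, with 3 higher in Static (2.46%, against 6.55%) and 5 lower (4.1%, against 7.64%). The share called was below the background. Higher in Static were Il11ra1 (2.07 ± 0.33, limma adjusted p = 0.000813), Il10rb (at least 1.54-fold, adjusted p = 0.0278) and Csf2rb2 (adjusted p = 0.0326). Both were below background on all dynamic arrays, and Csf2rb2 passed on 1 Static array, so no fold is given for it. Lower were Il17rd probe 7400603 (-1.19 ± 0.31, adjusted p = 0.0186), Il17rc probe 3870039 (-0.73 ± 0.18, adjusted p = 0.0141), Tnfrsf10b probes 1570100 (-0.61 ± 0.16, adjusted p = 0.0193) and 2370017 (-0.50 ± 0.15, adjusted p = 0.0388), and the dim Il17rc probe 1660170 (-0.56 ± 0.13, adjusted p = 0.00843). The count rested on which Static arrays entered: it was 20 without Static replicate 1, 1 without Static replicate 2 and 3 without Static replicate 3. It was 17 with the 8 Synthecon arrays as separate samples and 19 with those 8 arrays and the slide as a block. Within slide 1, where dynamic is Spinner alone, it was 0 (9 at an unadjusted p under 0.05 by limma). Within slide 3 Static is 1 array and dynamic is Synthecon alone, so no count is given. Il11ra1 kept its call whichever sample was left out, with a difference of 1.83 to 2.50. The calls of Il10rb and Csf2rb2 were each lost when any of 6 of the 8 samples was left out. That of Tnfrsf10b probe 2370017 was lost for any of 5 and that of Il17rd for any of 4. Those of Il17rc probe 3870039 and Tnfrsf10b probe 1570100 were each lost for any of 2. With neqc normalization Csf2rb2 (limma adjusted p = 0.142) and Tnfrsf10b probe 2370017 (0.0558) were not called. The pluripotency sum divided the Static arrays in the same way (61300 in replicate 1, against 9580 and 3700 in replicates 2 and 3), and sums of other cell types moved with the Static group too. Erythroid markers (8 measured, Hbb-b1 below background in Static and dynamic culture) summed to 4200, 46200 and 25300 in Static replicates 1, 2 and 3, against 1800 to 4000 in dynamic culture. Endothelial markers (8 measured, Kdr below background in both) summed to 1550, 3890 and 10500, against 1140 to 2140. Fibroblast markers (Postn below background in both) summed to 1560, 12000 and 2780, against 525 to 818. Hepatocyte markers (7 measured, Alb, Afp, Serpina1a and Fgb below background in both) summed to 2220, 1190 and 8640, against 506 to 996. Static replicates 2 and 3, where Il11ra1 was highest, thus carried the most erythroid and endothelial signal among the cultured arrays. The part of these cell types in the differences was not tested.

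BM and FL were compared as the 2 native sources. Of the 122 probes 5 (4.1%) were called, against 1.23% of all probes tested: 4 were higher in BM (3.28%, against 0.841%) and 1 was lower (0.82%, against 0.385%). Il18r1 was at least 2.16-fold higher in BM (limma adjusted p = 0.000111), Il31ra at least 1.44-fold (adjusted p = 0.000753) and Il17rb at least 1.31-fold (adjusted p = 0.004), since all FL arrays were below background for these 3 genes. Il17rb read 7.24, 7.25 and 7.49 in BM, against 6.60, 6.54 and 6.56 in FL. Tnfrsf26 read 7.64, 7.88 and 7.92 in BM, against 7.15, 7.14 and 7.34 in FL (0.60 ± 0.12, adjusted p = 0.022), a call lost without BM replicate 2, BM replicate 3, FL replicate 1 or FL replicate 2. Tnfrsf13c was the receptor lower in BM, at 7.41, 6.69 and 7.03, against 8.41, 8.22 and 9.69 in FL (-1.73 ± 0.29, adjusted p = 0.00558), with a difference of -2.01 to -1.28 when 1 array was left out. The NK-marker sum was 3490 to 5980 in BM, against 826 to 1200 in FL, and the B-cell sum was highest on FL replicate 3. Csf3r averaged 10.84 in BM and 9.03 in FL, but the BM arrays spread too widely for a call (1.81 ± 0.48, adjusted p = 0.101). The count of calls was 15 without BM replicate 1, 12 with the 8 Synthecon arrays as separate samples, 18 with those 8 arrays and the slide as a block, and 7 within slide 2.

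ESC-derived cells were also set against undifferentiated ESCs, the starting population. Static cells had 12 calls among 122 probes (9.84%, against 13.2% of all probes tested), with 3 higher (2.46%, against 6.37%) and 9 lower (7.38%, against 6.81%). Dynamic culture had 10 (8.2%, against 10.3%), with 4 higher (3.28%, against 6.04%) and 6 lower (4.92%, against 4.21%). With 1 sample left out these counts ran from 5 to 23 in Static and from 3 to 6 in dynamic culture. The 2 comparisons share the undifferentiated arrays, all on slide 1. The receptors higher in Static were Il11ra1, Il3ra and Csf2rb2 (limma adjusted p = 0.0377). Csf2rb2 was below background on all undifferentiated arrays, and its call was lost when any of 5 of the 6 arrays was left out and with neqc normalization (adjusted p = 0.178). In dynamic culture Il3ra, Tnfrsf10b probe 1570100 (0.58 ± 0.16, adjusted p = 0.0315) and Tnfrsf21 probe 1010347 (0.63 ± 0.19, adjusted p = 0.0425) were called higher, as was Il17re probe 7100020 (0.60 ± 0.18, adjusted p = 0.0431), which was below background on all undifferentiated arrays. The Il3ra call was lost when any of 7 of the 8 samples was left out, that of Tnfrsf10b for any of 5 and that of Tnfrsf21 for any of 7. With the slide as a block and 8 Synthecon arrays none of these 3 was called (adjusted p of 0.132, 0.121 and 0.267). Of the native receptors, Csf3r (1.30 ± 0.48 in Static, adjusted p = 0.0861, and 0.06 ± 0.43 in dynamic culture), Il7r (0.63 ± 0.55 and 0.15 ± 0.50) and Tnfrsf14 (below background on all arrays of both sides) were not called higher than in undifferentiated ESCs.

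The receptors lower than in undifferentiated ESCs were Il1rl1, Tnfrsf12a and Tnfrsf22 in both comparisons. Tnfrsf22 probe 430301 read 7.16, 6.51 and 6.93 in Static, 7.50, 7.41 and 7.46 in Spinner and 6.75 to 7.81 (median 7.43) in Synthecon, against 8.39, 9.63 and 8.34 in undifferentiated ESCs. All undifferentiated arrays were above all cultured arrays, with differences of -1.92 ± 0.33 in Static (limma adjusted p = 0.00152) and -1.37 ± 0.30 in dynamic culture (adjusted p = 0.00768). Tnfrsf12a was lower by differences of -1.60 ± 0.45 (adjusted p = 0.0277) and -1.47 ± 0.40 (adjusted p = 0.0296), lost when any of 3 and any of 6 samples was left out. Il1rl1 was at least 7.18-fold lower in Static (adjusted p = 0.0177), with a fitted difference of -3.34 ± 0.85, and of -1.73 without undifferentiated replicate 2. In dynamic culture its difference was -3.16 ± 0.77 (adjusted p = 0.0156), and -1.55 without that array. Undifferentiated replicate 2 had the highest values of its group also for Il11ra1 (10.97), Il10rb (7.25), the 3 Tnfrsf1a probes (7.34 to 7.44) and Tnfrsf22 (9.63), and it had the highest fibroblast sum, 3540, against 1370 and 1160 in replicates 1 and 3. The part of feeder cells in these values was not tested. In Static cells Il17rd and Il17rc were lower as well, with differences of -1.50 and -0.96 for the 2 Il17rd probes and of -0.95 and -0.70 for the Il17rc probes 780711 and 3870039. Both Il17rc calls were lost when any of 5 of the 6 arrays was left out. The remaining Il17rc probe (1660170) was called with all arrays of both groups below background. In dynamic culture Il17rd probe 3870537 had a difference of -0.64 ± 0.20 (adjusted p = 0.0472), a call lost whichever sample was left out, and Il20rb probe 5050753 one of -0.54 ± 0.13 (adjusted p = 0.0169) with all arrays below background.

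Genes that act with these receptors were counted from lists chosen by pathway. The counts stand against 13.8% of all probes lower and 12.9% higher in Static, and 18.2% lower and 18.9% higher in dynamic culture, and the values are fitted log2 differences, which the background compresses in dim genes. Of 20 JAK, STAT and SOCS genes, 8 were lower and 3 higher than native in Static (median -0.49), and 12 were lower and 3 higher in dynamic culture (median -0.50). Stat5a, a main factor downstream of the beta and gamma chain receptors, averaged 7.07 in Static, 6.31 in Spinner and 6.64 in Synthecon, against 8.97 in BM and 8.51 in FL, with differences of -1.68 in Static and -2.26 in dynamic culture. Socs2 and Socs3, feedback inhibitors of cytokine receptors, were higher: Socs2 by 1.25 in Static and 2.84 in dynamic culture, and Socs3 by 1.85 and 1.28. Of 24 measured adaptors and effectors of TNF and IL-1 receptors, 13 were lower and 2 higher in Static (median -0.48), and 14 were lower and 5 higher in dynamic culture (median -0.58). Casp8, the caspase that death receptors recruit, had differences of -2.51 in Static and -3.97 in dynamic culture, and Tnfaip3, an inhibitor of NF-kappaB signalling, of -2.45 and -3.30. Relb (1.13 and 1.48) and Traf4 (1.10 and 1.15) were higher than native in both.

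Ligands were mostly at background, and the same shares of all probes apply to their counts. Of 33 measured interleukin and colony-stimulating factor ligands, 11 were above background on every array of a group, 8 were lower than native in Static (none higher) and 10 lower and 3 higher in dynamic culture. Il16 (-3.29 in Static and -4.55 in dynamic culture), Osm (-3.54 and -2.73) and Il12a (-2.65 and -3.40) led these differences. Of 17 TNF-type ligands, 6 were lower in Static and 7 in dynamic culture, among them Tnf, the ligand of Tnfrsf1a (-1.88 and -2.06), Tnfsf13b, which is BAFF, the ligand of Tnfrsf13c (-1.77 and -2.05), and Tnfsf14, which is LIGHT, the ligand of Tnfrsf14 (-1.41 and -1.88). None was higher. Of 8 TNF receptors with names outside the Tnfrsf series, 1 was lower and 2 higher in Static and 2 were lower and 2 higher in dynamic culture. Cd27, a receptor of lymphoid cells and progenitors, was lower (-5.27 and -5.56), and Cd40 (2.08 and 1.89) and Ngfr (1.13 and 1.61) were higher. Of 10 measured shared subunits and related receptors, 2 were lower and 3 higher in Static, and 2 were lower and 4 higher in dynamic culture, so that the lower shares lay near those of all probes. Epor, the erythropoietin receptor, had differences of -2.11 in Static and -3.31 in dynamic culture. Ghr, the growth hormone receptor, was higher by 3.77 in Static and 1.94 in dynamic culture.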

How the data were processed

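Total RNA of 23 samples was read on Illumina MouseRef-8 v2 BeadChips. The authors summarized replicate beads and subtracted background in BeadStudio, then quantile-normalized the arrays, and the deposited log2 values of that table were used here. The deposited linear intensity values, background-subtracted by the authors, were used only for an alternative normalization. A probe was above background where its deposited detection p-value was under 0.01. A table of the authors' own comparisons was not used, nor were tables that repeat these values. Subtraction and quantile normalization compress differences of dim probes, so where all arrays of 1 side were below background a fold is given as a bound against the lowest signal above background on each array. The number of arrays limits the precision.

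The values of all 25697 probes were fitted in limma 3.58.1 (R 4.3.3) with 6 group means, the Synthecon arrays entering as 2 set means, and eBayes with trend. P-values were adjusted by Benjamini-Hochberg over all 25697 probes, with calls made below an adjusted p of 0.05. The fit was tested on simulated data. Figures and counts were made in Python 3.11.15 with pandas 2.3.3 and matplotlib 3.10.9. Each probe of a member was tested and counted on its own, and the brightest probe stands for a gene of another list. Values are given in full for called members with the largest differences (up to 8 in each direction of a comparison) that were above background on every array of a group, and up to 3 genes are named from a pathway list. Members, lists and this rule were chosen with earlier results of these data known. Symbols were updated by accession for 119 of 122 probes, and promoter sequences came from RefSeq (GRCm38.p6). From the marker and pathway lists 1 gene was left out and is not reported here. Alternatives were other normalization, filters, tests, blocks, slides and samples left out.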

Additional observations from a re-analysis of the deposited data

Results flagged for a closer look

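For 8 receptor probes the change against native cells differed between Static and dynamic culture, by the test of Static against dynamic itself (limma, adjusted over all probes). The difference was 2.07 log2 units for Il11ra1, 1.11 for Il10rb and 0.96 for Csf2rb2, all higher in Static. Il10rb and Csf2rb2 were below background on all dynamic arrays, so their fitted values are no fold (at least 1.54-fold for Il10rb, and no bound above 1 for Csf2rb2). It was -1.19 for Il17rd probe 7400603, -0.73 for Il17rc probe 3870039, -0.56 for Il17rc probe 1660170, -0.61 for Tnfrsf10b probe 1570100 and -0.5 for Tnfrsf10b probe 2370017, all lower in Static. Il11ra1 alone was called in opposite directions against native, higher in Static and lower in dynamic culture. It kept its call of Static against dynamic whichever sample was left out. The calls of Il10rb and Csf2rb2 were lost when any of 6 of 8 samples was left out. Those of Il17rd probe 7400603, Il17rc probe 3870039 and both Tnfrsf10b probes were lost for any of 2 to 5.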

How the results depend on the processing

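Of 95 named differences under 1949 alternative values, 1618 kept their direction and call, 331 kept their direction without the call and 0 reversed. Receptor probes called among 122 moved by over 1.5 times as follows, and the cause was not tested. Against native, Static calls (43) were 21 and 10 by the methods' t-test with equal and unequal variances and 20 within slide 1, and dynamic calls (56) were 27 within slide 1, which holds fewer arrays. Static against dynamic (8) gave 17 with 8 Synthecon arrays, 5 with Spinner replicates 1 and 2 as 1 sample, 4 with only the compared groups, 13 among probes detected on at least 3 arrays, 19 with 8 arrays and the slide as a block, 28 within slide 3 (1 Static array, assumed to vary like the others) and 0 within slide 1 and by both t-tests (9, 17 and 3 at an unadjusted p under 0.05). BM against FL (5) gave 12 with 8 Synthecon arrays, 1 with only the compared groups, 8 with neqc, 18 with 8 arrays and the slide as a block and 0 by both t-tests (18 and 15 unadjusted). Static against undifferentiated (12) gave 1 with only the compared groups and 0 by both t-tests and within slide 1 (7, 3 and 16 unadjusted). Dynamic against undifferentiated (10) gave 17 with 8 Synthecon arrays, 5 with the Spinner mean, 20 with only the compared groups and 1 and 0 by the t-tests (22 and 15 unadjusted). Within slide 1, where dynamic is Spinner alone, it gave 0 (16 unadjusted).

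With 1 sample left out, calls ran from 35 to 49 in Static and from 48 to 58 in dynamic culture against native, from 1 to 20 for Static against dynamic, from 4 to 15 for BM against FL (15 without BM replicate 1), from 5 to 23 for Static and from 3 to 6 for dynamic culture against undifferentiated, and from 54 to 66 in the F test. Static against dynamic gave 20 without Static replicate 1, 1 without Static replicate 2, 3 without Static replicate 3 or Synthecon set 2, and 5 without Spinner replicate 1, Spinner replicate 2 or Synthecon set 1. Static against undifferentiated gave 23 without Static replicate 1, 7 without Static replicate 2 or undifferentiated replicate 2, 6 without Static replicate 3 and 5 without undifferentiated replicate 3. Dynamic against undifferentiated fell below 10 whichever of its 8 samples was left out.

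Samples with the same replicate number share only a number: 11 of 30 such pairs correlated above 0.1 (-0.424 to 0.391 over 4643 probes). With a replicate block and 8 Synthecon arrays (8 arrays without the block gave 46, 62, 17, 12, 14, 17 and 75 in the same order), calls were 40 and 61 in Static and dynamic culture against native, 14 for Static against dynamic, 6 for BM against FL, 12 and 8 in Static and dynamic culture against undifferentiated and 64 in the F test. Probes below background (values of 4.90 to 6.84, floors of 6.67 to 7.02) limit what can be said of 24 receptors.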
